A study of Mus musculus with 24 samples.

Results

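The nuclear genes for the subunits of the mitochondrial respiratory chain were followed by RNA sequencing in the livers of C57BL/6 wild-type mice that ate 1 of 5 diets for 8 weeks, starting at an age of 8 to 10 weeks. The genes were taken by name: symbols that start with Nduf followed by a, b, c, s or v and a digit, Sdha to Sdhd, and symbols that start with Uqcr, Cox4 to Cox8 or Atp5. Of 34436 rows of the count table, 86 had such a name, and 75 of them reached a mean of 1 CPM (reads per 1000000, scaled by effective library size). These 75 members comprised 37 rows of complex I, 4 of complex II, 8 of complex III, 11 of complex IV and 15 of complex V. All 75 also passed the filter on low counts and were tested. The reference diet was normal chow (NC, 4 libraries). High sucrose was fed without cholesterol (HS, 5 libraries) or together with 2% cholesterol (HS_Chol, 3 libraries). Cholic acid, a bile acid, was likewise fed without (CA, 4 libraries) or together with 2% cholesterol (Chol_CA, 4 libraries). All mice were of the same strain and genotype, and no allele or agent other than the diet is given in the labels. The table carries a diet and a number from 0 for each library, which could not be tied to single labelled samples. One sample titled HS has a chow diet in its label, and its column is not known. The libraries are numbered livers, and p-values measure the spread between them.

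The respiratory chain carries electrons from NADH and succinate to oxygen and stores the energy as a proton gradient over the inner mitochondrial membrane. Complex I takes electrons from NADH, complex II (succinate dehydrogenase, also an enzyme of the citric acid cycle) takes them from succinate, complex III passes them from ubiquinol to cytochrome c, complex IV hands them to oxygen, and complex V, the ATP synthase, uses the gradient. All subunits of complex II and most subunits of the others are encoded in the nucleus, while mitochondrial DNA encodes a small core set for complexes I, III, IV and V. Hepatocytes are rich in mitochondria and oxidize fatty acids and amino acids through this chain.

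In the livers fed cholesterol with cholic acid, subunit mRNAs were lower than in chow in each complex but IV by a fit with diet alone, by about 0.4 to 0.7 on the log2 scale for the genes that passed the test. They included some core subunits, such as Ndufs1 and Ndufv1 of complex I, Sdha of complex II, Uqcrc1 of complex III and Atp5b of complex V. In Chol_CA against chow 9.35% of all genes were lower, and without NC library 3 the members' median log2 fold change was −0.01. In HS, HS_Chol and CA against chow, no more than 1 member passed by the fit with diet alone. There 0.437%, 0.564% and 4.61% of all genes were lower, and 0.214%, 1.71% and 5.22% were higher. The short subunit mRNAs also differed between libraries of the same diet, along with a trend of all genes with transcript length, and results are therefore given with and without a term for that trend.

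The names cover some genes that are not subunits in the strict sense. Ndufa4 is counted here with complex I by its name although its protein is part of complex IV. Cox7a2l encodes a factor of respiratory supercomplexes, and the proteins of Atp5s and Atp5sl are related to distal membrane arm assembly rather than being parts of the ATP synthase. The member nearest above the minimum was Ndufa4l2 with a mean of 2.01 CPM, and the row nearest below was Cox7a1 with 0.952 CPM. A minimum of 0.5 CPM gave 76 members and a minimum of 5 CPM gave 70.

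Levels per length were compared as CPM per kb of transcript, averaged over the 20 libraries. In complex I the highest was Ndufa6, an accessory subunit, at 452 CPM per kb (chromosome 15, 82350140 to 82354322, mm10 coordinates of the GENCODE M21 gene). In complex II the 4 subunits lay close together, from 194 CPM per kb for Sdhc and 169 for the flavoprotein Sdha to 130 for the iron-sulfur subunit Sdhb and 117.5 for the membrane anchor Sdhd. In complex III the small subunit Uqcrq was highest at 538.6 CPM per kb (chromosome 11, 53427922 to 53430831), and in complex IV the small subunit Cox6b1 at 510.3 (chromosome 7, 30616861 to 30626151). In complex V the catalytic beta subunit Atp5b reached 561 CPM per kb (chromosome 10, 128083273 to 128090391), the highest of all 75 members.

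Where a subunit has several isoform genes, 1 isoform held nearly all reads. Per kb, Cox4i1, the widely expressed form of subunit 4, stood at 453 CPM and the hypoxia- and lung-related Cox4i2 at 0.124 CPM. Cox6a1 stood at 262.75 against 0.284 CPM per kb for the muscle form Cox6a2, and Cox6b1 at 510.3 against 0.422 for the testis form Cox6b2. Cox7a2 had 124 CPM per kb, the related Cox7a2l 44.3 and the muscle form Cox7a1 2.42. Cox8a had 265 CPM per kb and the muscle form Cox8b 0.0737. Ndufa4 had 427 CPM per kb and Ndufa4l2, known as a hypoxia-responsive gene, 2.15. Striated muscle transcripts were near absent: 12 muscle markers together gave 2.86 to 10.8 CPM in NC and 7.36 to 17.3 CPM in Chol_CA, and Ckm, Mb and Tcap had no read in NC.

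A few low rows encode obligatory subunits, and their levels are uncertain because other genes hold the same sequence. The 3 genes Atp5g1, Atp5g2 and Atp5g3 encode the same c-ring protein behind different import signals. Atp5g3 stood at 294 CPM per kb, Atp5g1 at 3.30 and Atp5g2 at 0.165. Of all 50-base windows of their transcripts, 0% of those of Atp5g3, 56.2% of those of Atp5g1 and 100% of those of Atp5g2 also occur in the transcript of another gene. The same share was 53.0% for Cox7c (2.03 CPM), 37.0% for Ndufb4 (2.36 CPM), 35.6% for Ndufs5 (2.65 CPM), 43.4% for Uqcrb (9.33 CPM) and 84.85% for Atp5l (0.245 CPM, below the minimum). How reads with several matches were counted is not given in the sources used here, so these rows can undercount, and how far was not tested.

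The members were short transcripts. Their median length was 704 bases, and 53 of 75 (70.7%) were under 1 kb, against a median of 2486 bases and 12.4% under 1 kb over the tested genes with a known length. For each library, the slope of the log2 deviation of every other tested gene from its mean on log2 transcript length was taken as a library length slope. It was positive in 12 libraries and negative in 8: NC library 3 (−0.161), HS libraries 0, 1 and 2 (−0.140, −0.141 and −0.111), HS_Chol library 0 (−0.022), CA library 0 (−0.145) and Chol_CA libraries 0 and 1 (−0.077 and −0.260). A negative slope means that short transcripts had relatively more reads in that library.

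The members' median log2 deviation from their own mean over all libraries was −0.21, −0.13, −0.12 and 0.63 in NC libraries 0 to 3. It was 0.50, 0.51 and 0.49 in HS libraries 0 to 2 and −0.09 and −0.11 in HS libraries 3 and 4. The highest library of NC and the 3 highest of HS were thus those with a negative slope, and the 2 other HS libraries lay beside the other NC libraries. In HS_Chol the values were −0.10, −0.20 and −0.11, and in CA 0.19, −0.18, −0.04 and 0.06. In Chol_CA they were −0.14, 0.23, −0.52 and −0.49. The library of Chol_CA with the most negative slope lay lower than the NC and HS libraries of negative slope, and the 2 with a positive slope were lower than all others.

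**Figure D1:**
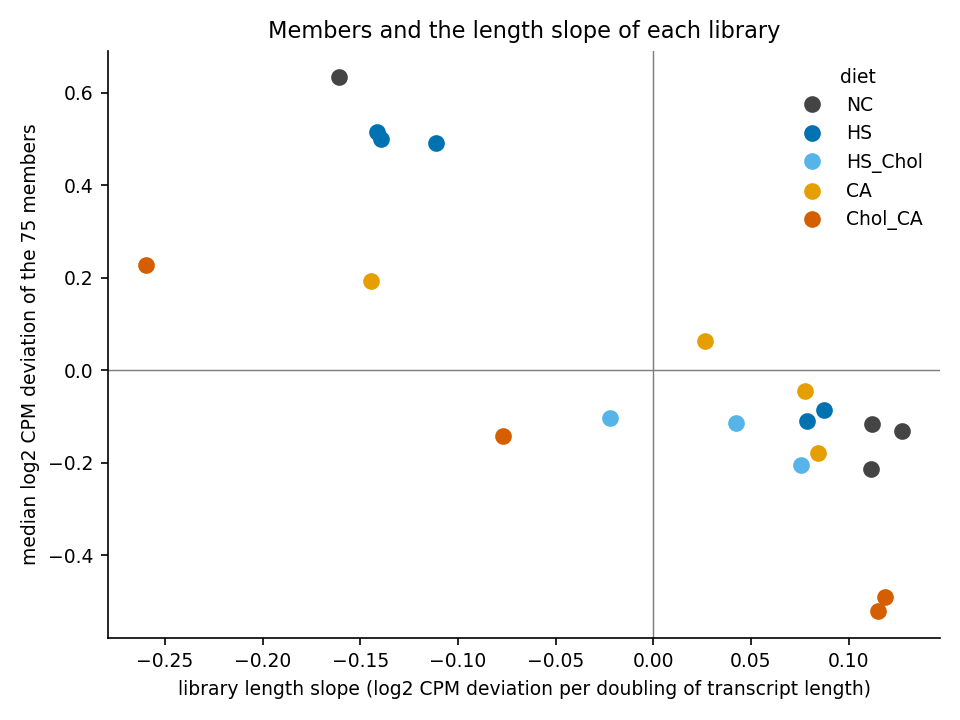
Each point is 1 of 20 libraries, with its length slope on the x axis (log2 CPM deviation per 2-fold longer transcript, from genes that are not members) and the median log2 CPM deviation of the 75 members on the y axis, coloured by diet. Libraries with a negative slope reach up to 0.63, and the 2 Chol_CA libraries of positive slope are the lowest at −0.52 and −0.49.

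To separate diet from this trend, a second fit held the library length slope as a numeric term beside the diets. In that fit 61 members were lower and 2 were higher with a rising slope by edgeR's quasi-likelihood test at an adjusted p under 0.05, with a median log2 change of −2.28 per unit of slope. Over all 12595 genes 27.7% were lower and 25.2% higher with the slope. The short Uqcrq changed by −3.33 ± 0.29 per unit of slope (SE, adjusted p = 8.27e-09), while the long Sdha (2900 bases) went the other way at 1.57 ± 0.26 (adjusted p = 3.34e-05). Ndufs1 (2590 bases) was the second member that rose with the slope, and Sdhd and Atp5b did not pass (−0.24 ± 0.32 and 0.35 ± 0.31, adjusted p = 0.552 and 0.362). The trend separated libraries of the same diet, and its source was not tested.

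Summed over its 37 rows, complex I had 2285, 2363, 2397 and 3942 CPM in NC libraries 0 to 3 and 2205, 2866, 1793 and 1838.5 CPM in those of Chol_CA. These ranges overlapped through Chol_CA library 1. Complex II had 1025, 1055, 1068 and 1092 CPM in NC and 720.4, 648.2, 721.7 and 738.2 CPM in Chol_CA, with every Chol_CA library below every NC library. Complex III had 957, 998, 1015 and 1642 CPM in NC and 874, 1073, 724.1 and 750.2 CPM in Chol_CA, again with an overlap. Complex IV overlapped most, with 1050, 1122, 1097 and 2029 CPM in NC and 1152, 1560, 853 and 893 CPM in Chol_CA. Complex V had 3384, 3461, 3419 and 4159 CPM in NC and 2529, 2519, 2422 and 2474 CPM in Chol_CA, with no overlap. Sums are led by their most abundant rows, which in complexes II and V are long transcripts (Sdha, Atp5b and Atp5a1).

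**Figure D2:**
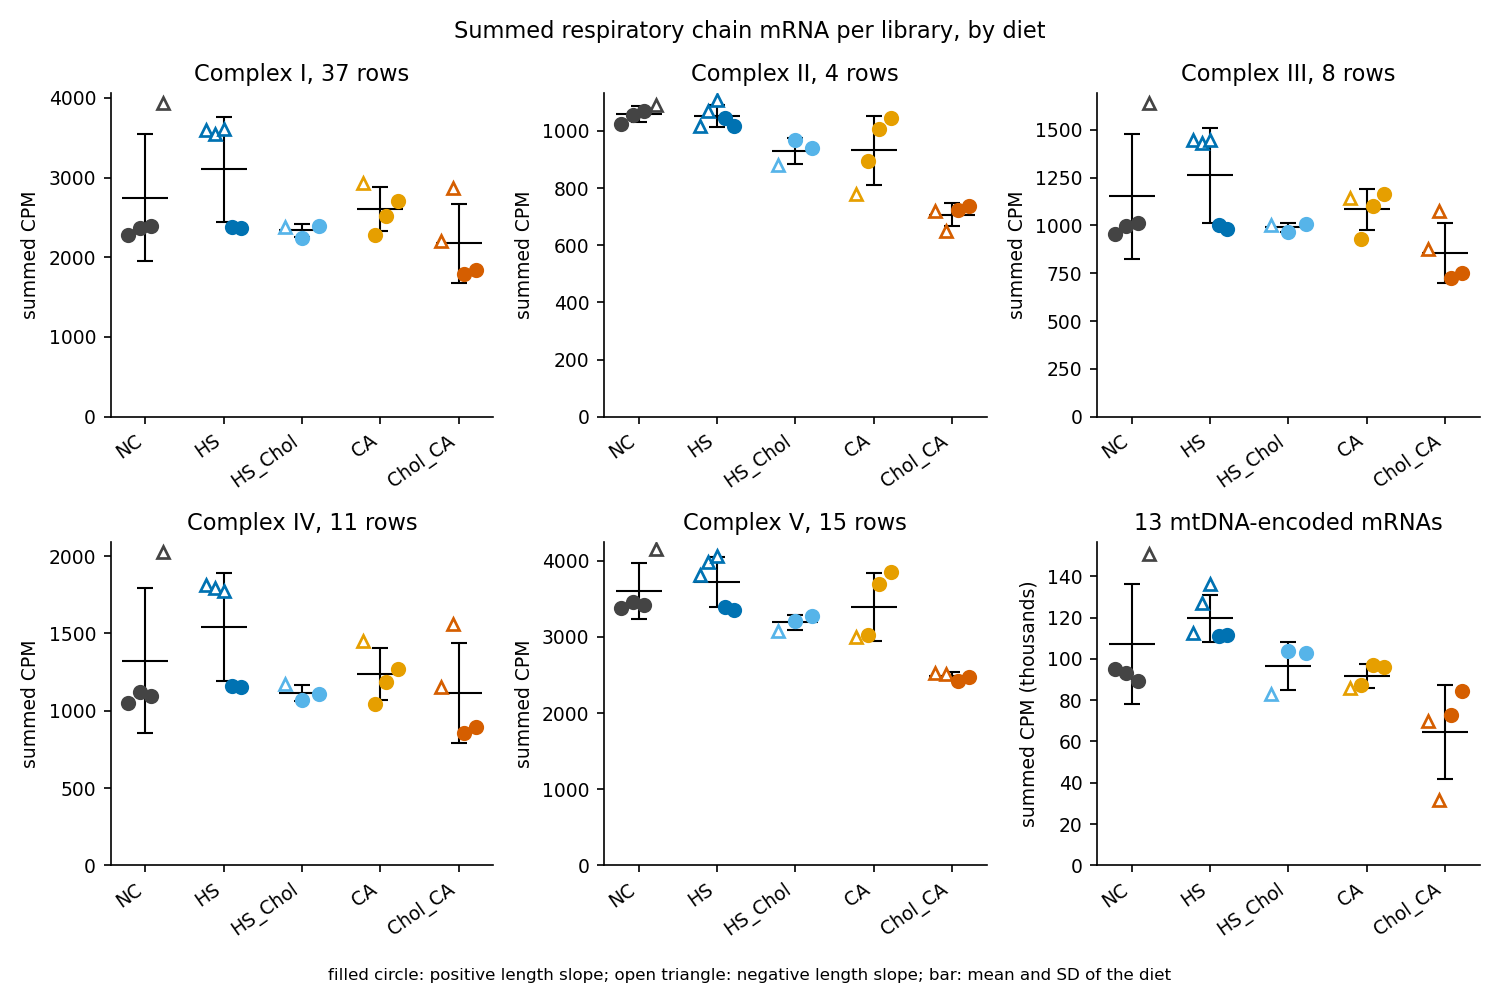
Summed CPM of the members of each complex, and of the 13 mRNAs of mitochondrial DNA in units of 1000 CPM, for each library (y axis) by diet (x axis), with the mean and SD of the diet as a bar, filled circles for libraries of positive and open triangles for libraries of negative length slope. In complexes II and V the 4 Chol_CA libraries lie below all NC libraries, and in complexes I, III and IV the triangles of NC and HS lie above the circles of the same diet.

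Cholesterol with cholic acid against chow gave the largest change. In the fit with diet alone 18 members were lower and 1 was higher, with a median log2 fold change of −0.31 over the 75 and −0.0015 over all genes. Of all 12595 genes 9.35% were lower and 15.0% higher in this comparison. The lower ones were 7 of 37 in complex I, 2 of 4 in complex II, 3 of 8 in complex III, 0 of 11 in complex IV and 6 of 15 in complex V. They were mostly the long transcripts: 15 of 22 members of 1 kb or more, and 3 of 53 under 1 kb. Once the length slope was in the fit, 63 members were lower and 1 higher, with a median of −0.47, where 15.6% of all genes were lower. These were 31 of 37 in complex I, 4 of 4 in complex II, 8 of 8 in complex III, 9 of 11 in complex IV and 11 of 15 in complex V. With the slope, 44 of 53 members under 1 kb and 19 of 22 longer ones were lower. Other tested genes under 1 kb had a median log2 fold change of 0.10 in the first fit and −0.01 in the second. Among the libraries of positive slope alone (3 NC and 2 Chol_CA), 46 members were lower, where 12.0% of all genes were. Without NC library 3 the first fit gave 12 lower members and a median of −0.01, and the second gave 52.

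**Figure D3:**
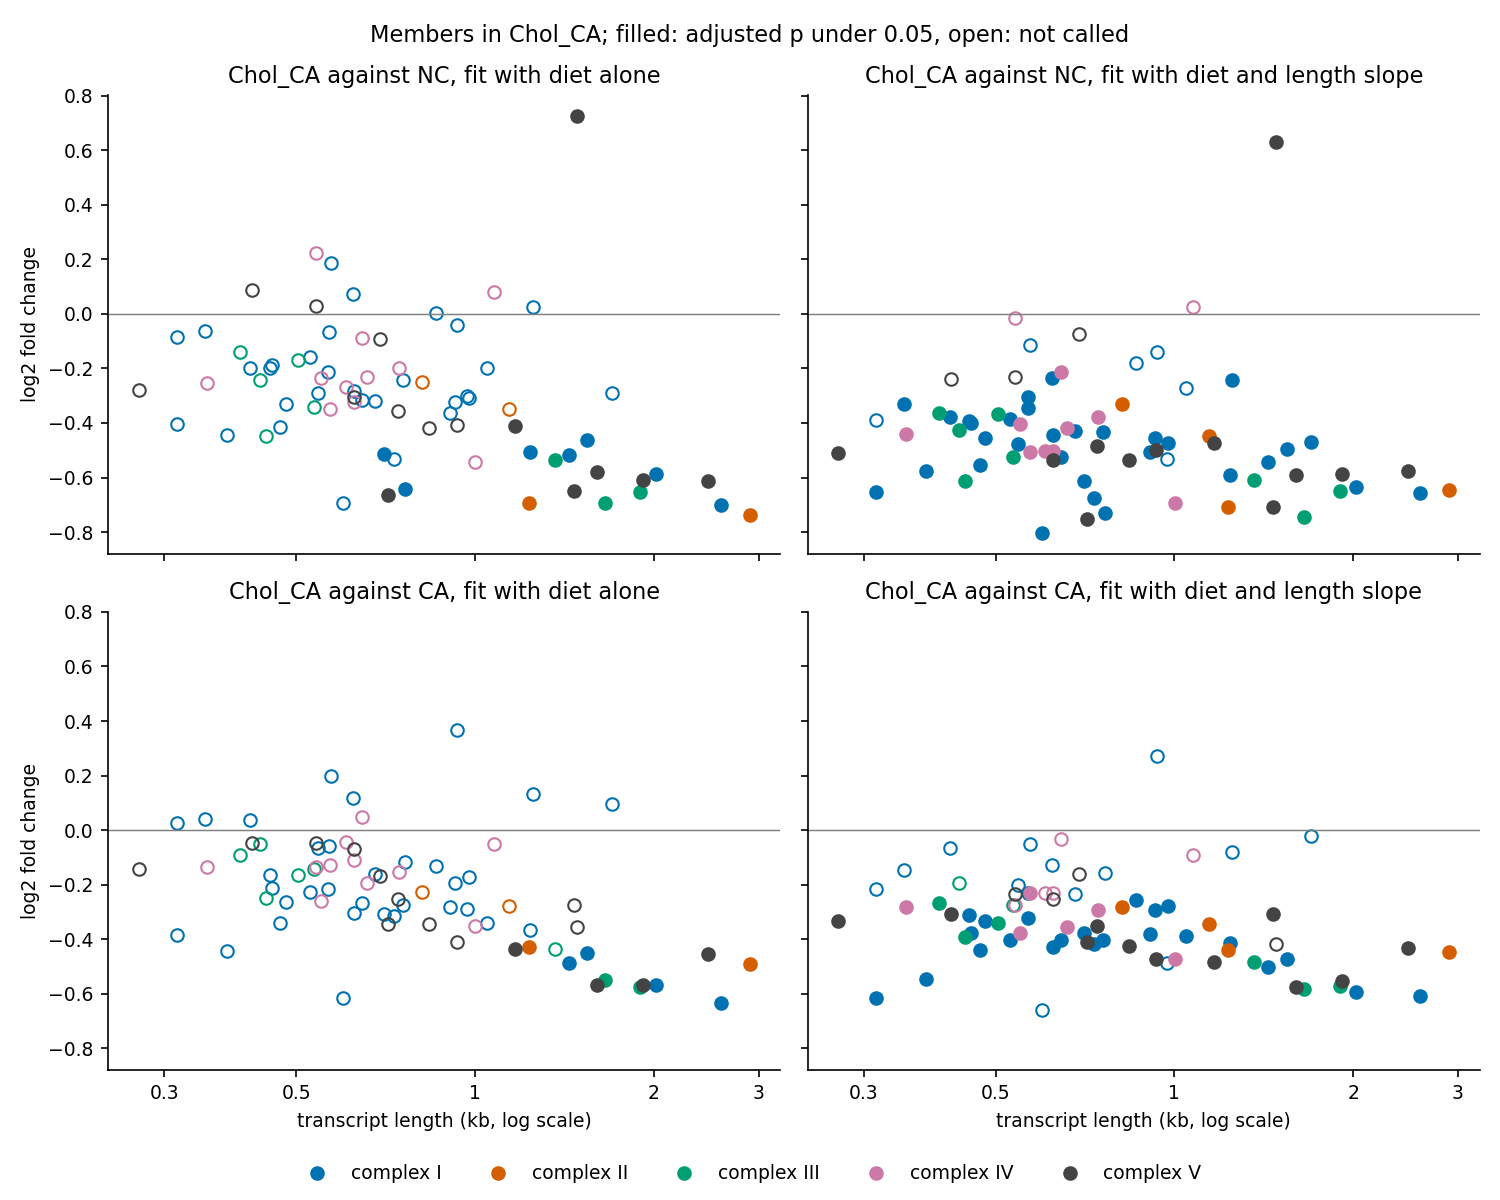
Log2 fold change of each member in Chol_CA (y axis) against its transcript length in kb on a log scale (x axis), coloured by complex, against NC (top) and CA (bottom), from the fit with diet alone (left) and with the length slope (right), filled where the adjusted p is under 0.05. In the left panels the called members are mostly those of 1 kb or more, and in the right panels called members span all lengths.

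Within complex I the members lower in Chol_CA by the first fit included Ndufs1, Ndufv1, Ndufa9, Ndufa10, Ndufb3 and Ndufb9. Ndufs1, the largest core subunit with iron-sulfur clusters (chromosome 1, 63143596 to 63176833, overlapping Eef1b2 and 2 more genes of the opposite strand), had 129.9, 120.1, 126.2 and 129.7 CPM in NC. It had 78.95, 61.89, 83.53 and 87.13 CPM in Chol_CA. The groups did not overlap, and the log2 fold change was −0.70 ± 0.13 (adjusted p = 0.000558). Ndufv1, the NADH-binding core subunit, had 120.3, 121, 117 and 143 CPM in NC and 83.59, 86.08, 86.85 and 93.3 in Chol_CA, also without overlap (−0.52 ± 0.12, adjusted p = 0.00213). The 6 complex I members that stayed uncalled in both fits were Ndufa2, Ndufa8, Ndufc1, Ndufs3, Ndufb4 and Ndufa4l2. The short and abundant Ndufa6 had 131.6, 149.3, 138.9 and 282.6 CPM in NC and 124.7, 172, 110.4 and 109.4 in Chol_CA. Its groups overlapped (−0.44 ± 0.23, adjusted p = 0.187), and it passed with the length slope (−0.58 ± 0.11, adjusted p = 0.000271).

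In complex II the first fit called Sdha and Sdhd lower in Chol_CA. Sdha, the flavoprotein that oxidizes succinate (chromosome 13, 74322254 to 74350280, with an opposite-strand neighbour that overlaps it, Gm16125), had 591.4, 611.5, 619.9 and 494.5 CPM in NC. In Chol_CA it had 348.8, 240.6, 391.3 and 410 CPM. All Chol_CA libraries lay below all NC libraries, and the log2 fold change was −0.74 ± 0.16 (adjusted p = 0.0017). Sdhd, a membrane anchor that binds ubiquinone (chromosome 9, 50596357 to 50603812), had 151.8, 154.8, 157.2 and 194.1 CPM in NC and 104.4, 105, 97.2 and 100 CPM in Chol_CA. The groups were again apart, and the log2 fold change was −0.69 ± 0.13 (adjusted p = 0.000364), with the same size under the length slope (−0.71 ± 0.11). The other membrane anchor Sdhc (−0.25 ± 0.13, adjusted p = 0.195) and the iron-sulfur subunit Sdhb (−0.35 ± 0.17, adjusted p = 0.154) passed only in the fit with the slope.

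In complex III the core proteins Uqcrc1 and Uqcrc2 and the Rieske iron-sulfur protein Uqcrfs1 were lower in Chol_CA. Uqcrc1 (chromosome 9, 108936633 to 108949623) had 229.4, 244.3, 237.8 and 305.5 CPM in NC and 158.4, 165.5, 151.2 and 153.8 in Chol_CA. The groups lay apart, with a log2 fold change of −0.69 ± 0.13 (adjusted p = 0.000543). Uqcrfs1 had a mean of 134.8 ± 30.8 CPM (SD, n = 4) in NC and 92.96 ± 7.80 CPM (n = 4) in Chol_CA, with a log2 fold change of −0.54 ± 0.15 (adjusted p = 0.0141). The small subunit Uqcrq had 185.9, 203.4, 201.1 and 474.7 CPM in NC and 234.5, 363.1, 166.8 and 183.9 in Chol_CA. The highest library of each diet was the one with the most negative slope, and the difference of −0.17 ± 0.30 did not pass (adjusted p = 0.733), while it passed with the slope (−0.37 ± 0.10, adjusted p = 0.00988).

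No member of complex IV passed in the first fit, where 1 had an unadjusted p under 0.05. Cox4i1, its subunit 4 and a regulator of the enzyme (chromosome 8, 120668222 to 120674207, with an opposite-strand neighbour that overlaps it, Emc8), had 267.8, 293.6, 294.1 and 520 CPM in NC and 300.2, 433.3, 224.6 and 240.7 CPM in Chol_CA. The groups overlapped (−0.20 ± 0.23, adjusted p = 0.584). With the slope the log2 fold change was −0.38 ± 0.10 (adjusted p = 0.00421). Cox7b, a small subunit encoded on the X chromosome (106015700 to 106022450), had 85.21, 97.35, 88.83 and 193.2 CPM in NC and 87.03, 104, 57.93 and 69.71 in Chol_CA. Its values overlapped, and it too passed with the slope (−0.69 ± 0.11, adjusted p = 5.9e-05). The supercomplex factor Cox7a2l (0.02, adjusted p = 0.91) and the low Cox7c (−0.01, adjusted p = 0.98) were the 2 rows of this complex that did not pass there. Cox7a2l had 45.6 ± 1.47 CPM in NC and 48.2 ± 10.0 CPM in Chol_CA.

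In complex V the catalytic beta subunit Atp5b, the alpha subunit Atp5a1, the gamma subunit Atp5c1, the peripheral stalk subunit Atp5f1 and the c-ring gene Atp5g3 were lower in Chol_CA, and so was Atp5sl. Atp5b had 1161, 1198, 1177 and 1242 CPM in NC and 782.9, 704.7, 812 and 829.8 in Chol_CA. The lowest NC library was above the highest Chol_CA library, and the log2 fold change was −0.61 ± 0.12 (adjusted p = 0.0009). Atp5a1 went from 1024 ± 12.3 to 669 ± 83.1 CPM (n = 4 each; −0.61 ± 0.12, adjusted p = 0.000919). Atp5e, the small epsilon subunit, had 35.66, 37.8, 36.96 and 92.03 CPM in NC and 56.43, 93.07, 30.67 and 35.29 in Chol_CA. It did not pass in either fit (adjusted p = 0.896 and 0.074). Atp5s was the 1 member that rose, from 3.15, 3.739, 4.02 and 3.977 CPM in NC to 7.948, 7.45, 5.471 and 3.897 in Chol_CA (0.72 ± 0.22, adjusted p = 0.0208). Its groups overlapped at 1 Chol_CA library, and the call did not hold without NC library 0 (adjusted p = 0.0617), Chol_CA library 0 (0.113) or Chol_CA library 1 (0.0743).

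**Figure D4:**
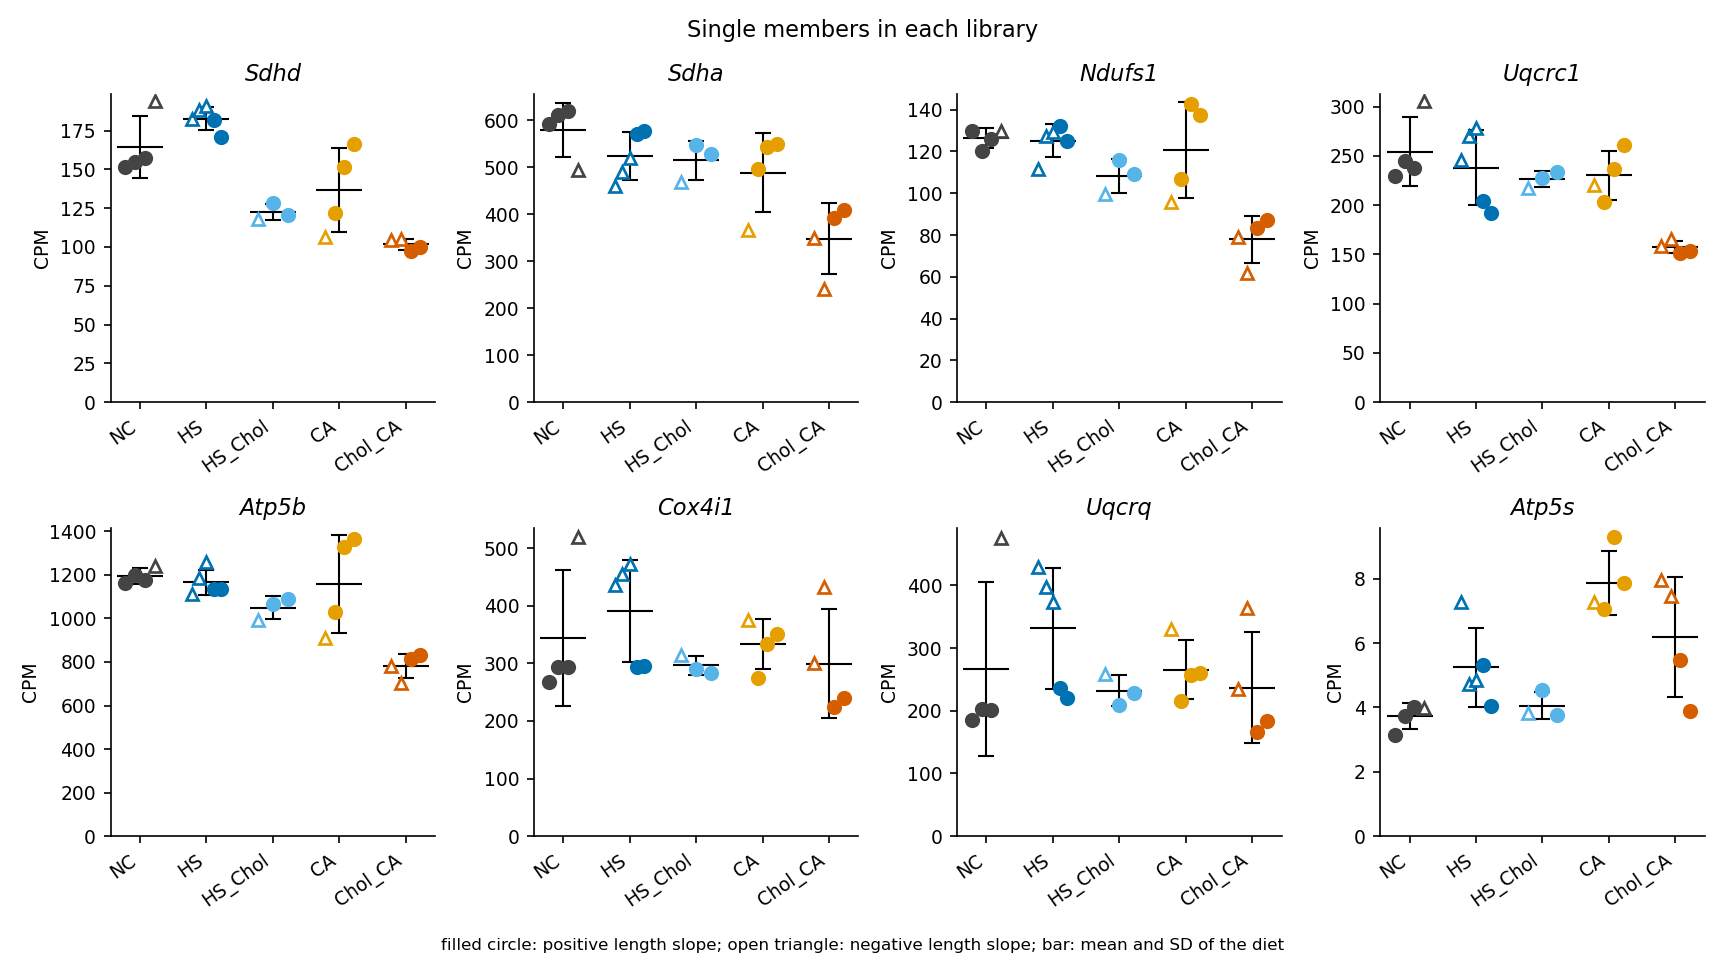
CPM of 8 members in each library (y axis, from 0) by diet (x axis), with the mean and SD of the diet as a bar, filled circles for positive and open triangles for negative library length slope. Sdhd, Sdha, Ndufs1, Uqcrc1 and Atp5b lie lower in all Chol_CA than in all NC libraries, while the short Cox4i1 and Uqcrq spread within each diet with the slope.

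Promoter windows were taken from RefSeq (GRCm38.p6), from 250 bases before to 50 after the start, for 63 of the 75 members, 3 of them by an older name. They were searched on both strands for a core of the site of NRF1 (CGCATGCG), of the ETS factor GABP (CCGGAAG), of YY1 (AAGATGGCG) and of estrogen-related receptors (TCAAGGTCA), factors known from mitochondrial gene regulation. Matches of different motifs may overlap. The NRF1 core was in 7 of 63 (11.1%) against 2.07% of 27025 genes, and the ETS core in 15 (23.8%) against 9.93%. The YY1 core was in 8 (12.7%) against 1.64%, and the ERR core in 2 (3.17%) against 0.466%. At least 1 of the 4 was in 26 members (41.3%) and in 13.2% of all genes. The 27025 are all genes with a window, including genes too low in these livers to be tested. The YY1 core was in 5 of 32 windows of complex I and 3 of 14 of complex V. It was in none of the 3, 5 and 9 windows of complexes II, III and IV.

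The 250 bases before the start are shown for 3 members that fell in Chol_CA by the fit with the slope and hold a core there, chosen after their values were seen. The genes are Cox6a1 with an NRF1 and an ETS core (161 and 16 bases before the start, chr5:115348959-115349208, minus strand), Sdhd with an ETS core (46 bases before, chr9:50603850-50604099, minus strand) and Atp5g3 with an ERR core (52 bases before, chr2:73911327-73911576, minus strand). Each runs 5′ to 3′ on the gene's strand, and capitals mark the core on either strand.
Cox6a1: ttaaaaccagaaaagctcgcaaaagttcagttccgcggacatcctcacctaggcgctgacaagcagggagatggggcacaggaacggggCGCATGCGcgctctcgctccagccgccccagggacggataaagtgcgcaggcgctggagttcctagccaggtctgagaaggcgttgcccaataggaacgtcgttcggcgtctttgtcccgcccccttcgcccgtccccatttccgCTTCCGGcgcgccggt
Sdhd: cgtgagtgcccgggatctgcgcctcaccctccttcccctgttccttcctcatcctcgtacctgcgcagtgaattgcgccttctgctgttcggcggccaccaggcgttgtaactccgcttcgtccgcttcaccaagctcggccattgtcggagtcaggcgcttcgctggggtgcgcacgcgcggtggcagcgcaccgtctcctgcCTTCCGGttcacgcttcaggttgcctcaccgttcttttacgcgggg
Atp5g3: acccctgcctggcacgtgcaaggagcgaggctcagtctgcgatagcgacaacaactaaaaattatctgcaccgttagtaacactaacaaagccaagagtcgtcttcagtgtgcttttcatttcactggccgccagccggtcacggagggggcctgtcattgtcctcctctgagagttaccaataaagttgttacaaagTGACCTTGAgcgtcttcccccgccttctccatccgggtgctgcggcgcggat
A match in letters is not a measured site. The 3 genes belong to complexes IV, II and V and had no core in common other than the ETS core of Cox6a1 and Sdhd in these bases.

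Cholesterol added to cholic acid compares Chol_CA with CA and was also led by falls. In the first fit 12 members were lower and 0 higher (unadjusted p under 0.05 in 16), with a median log2 fold change of −0.23. Of all genes 7.80% were lower and 13.4% higher. The lower members included Ndufs1, Ndufv1 and Ndufa10 in complex I, Sdha and Sdhd in II, Uqcrc1 and Uqcrc2 in III, and Atp5a1, Atp5b, Atp5c1 and Atp5f1 in V. All 12 are 1 kb or longer. With the length slope 51 members were lower (median −0.34), where 15.5% of all genes were, and among positive-slope libraries (3 CA and 2 Chol_CA) 58 were lower, where 13.8% of all genes were. Without Chol_CA library 1 the fit with the slope gave 36, and without NC library 3 the first fit gave 14.

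The largest falls were of Ndufs1, Uqcrc2 and Atp5f1. Ndufs1 had 95.68, 106.9, 142.8 and 137.4 CPM in CA, all above the Chol_CA values given above (−0.63 ± 0.13, adjusted p = 0.00224). Uqcrc2 (chromosome 7, 120635176 to 120659524, overlapped by Pdzd9, 24.8% of windows shared with another gene) had 195.9, 203.5, 261.3 and 261.1 CPM in CA and 164.9, 127.1, 161 and 165.7 in Chol_CA. Its groups lay apart (−0.58 ± 0.13, adjusted p = 0.0035). Atp5f1 (chromosome 3, 105942698 to 105960099, overlapped by Gm42890 and Wdr77) had 132.8, 132.5, 171.4 and 186 CPM in CA and 114.6, 97.77, 105 and 102.9 in Chol_CA. These too were apart (−0.57 ± 0.12, adjusted p = 0.00272). The comparisons of Chol_CA with NC and with CA share the Chol_CA libraries.

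Cholic acid alone was compared with chow next. In the first fit 1 member was higher, Atp5s, and 0 were lower (unadjusted p under 0.05 in 4, median −0.07), where 5.22% of all genes were higher and 4.61% lower. Without NC library 3 the median was 0.14. Atp5s (chromosome 12, 69724950 to 69744660) had 7.287, 7.065, 9.278 and 7.862 CPM in CA, above all 4 NC libraries (1.08 ± 0.22, adjusted p = 0.00333). The call held without each library in turn and with the slope (1.05 ± 0.20, adjusted p = 0.00111). Atp5sl, the related gene on chromosome 7 (25619414 to 25625551), had 39.95, 39.33, 37.09 and 51.84 CPM in NC and 35.26, 33.79, 31.29 and 29.32 in CA. Its groups did not overlap, and it did not pass in the first fit (−0.38 ± 0.14, adjusted p = 0.108). With the slope it passed (−0.40 ± 0.10, adjusted p = 0.00832), together with Ndufa1, Ndufb3, Ndufs4 and Cox6a1. These 5 of 75 lower members stood against 8.43% of all genes.

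High sucrose against chow gave 0 members higher and 0 lower by edgeR's quasi-likelihood test, where 0.214% of all genes were higher and 0.437% lower. The median was 0.18, and 4 members had an unadjusted p under 0.05. The smallest adjusted p were those of Cox7c (0.90 ± 0.38, adjusted p = 0.371, a row of 2.03 CPM with shared sequence) and Atp5s (0.49 ± 0.22, adjusted p = 0.397). Sdhd had 182.3, 188, 191.1, 181.8 and 170.9 CPM in HS, which overlapped with NC. With the slope the median was 0.01 and again 0 members passed in either direction, with 0.969% of all genes lower. Without NC library 3 the median of the first fit was 0.44 and the count stayed 0.

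**Figure D5:**
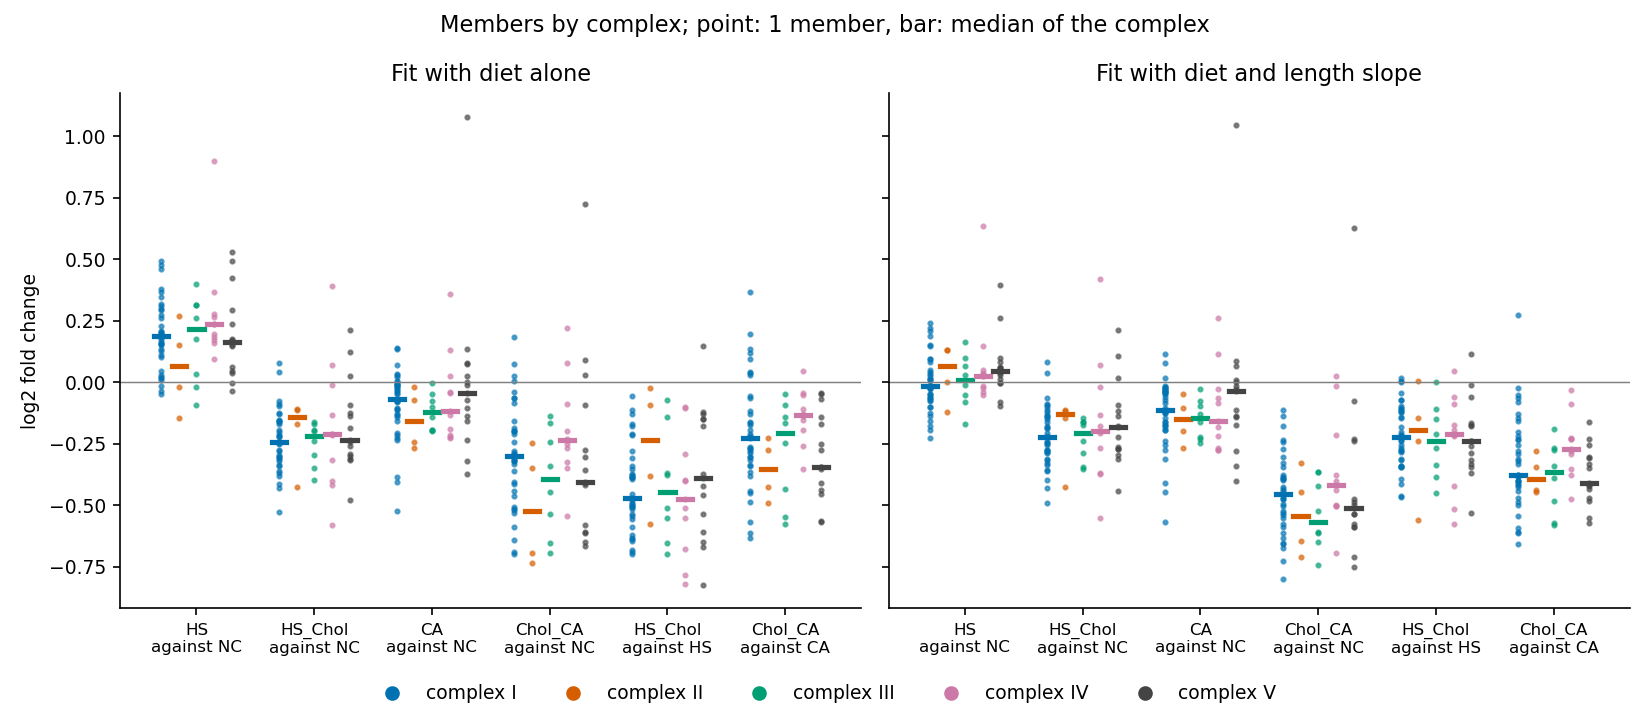
Log2 fold change (y axis) of each member, a point, in 6 comparisons (x axis), coloured by complex with the median of the complex as a bar, from the fit with diet alone (left) and with the length slope (right). The HS medians of the complexes are between 0.07 and 0.24 on the left and between −0.02 and 0.06 on the right.

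High sucrose with cholesterol against chow gave 0 higher and 0 lower members in the first fit (median −0.22, unadjusted p under 0.05 in 2, and 1 lower member by DESeq2), where 1.71% of all genes were higher and 0.564% lower. Without NC library 3 the median was −0.01. Sdhd had 118.3, 128.3 and 120.6 CPM in HS_Chol, below all NC libraries, but did not pass (−0.43 ± 0.14, adjusted p = 0.133). Cox7b had 86.72, 69.06 and 76.8 CPM, overlapping with NC (−0.58 ± 0.28, adjusted p = 0.42). With the slope both passed (adjusted p = 0.0442 and 0.00921), among 9 lower members: Ndufa1, Ndufc2, Ndufs4 and Ndufv3, Sdhd, Cox6b1, Cox7a2 and Cox7b, and Atp5h. Of all genes 1.89% were lower there. Without HS_Chol library 0 the count was 0.

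Cholesterol added to high sucrose compares HS_Chol with HS and lowered 1 member, Sdhd, with 0 higher. Of all genes 0.651% were lower and 1.60% higher, and 24 members had an unadjusted p under 0.05. The HS_Chol values of Sdhd lay below all 5 HS values (−0.58 ± 0.13, adjusted p = 0.0203). The adjusted p was 0.123, 0.0557 and 0.073 without HS_Chol library 0, 1 and 2. Cox7b had 168.5, 152.8, 166.6, 103.8 and 92.22 CPM in HS, all above HS_Chol, and did not pass (−0.82 ± 0.27, adjusted p = 0.149). The members' median of −0.42 became −0.22 with the slope, and 13 members were then lower (1.89% of all genes), 1 of them without HS_Chol library 0. The 13 were Ndufa1, Ndufa6, Ndufa8, Ndufb8, Ndufc2, Ndufv2, Sdhd, Uqcr10, Uqcrh, Cox6b1, Cox7a2, Cox7b and Atp5j2. Among positive-slope libraries (2 HS and 2 HS_Chol) 0 members were lower, where 0.652% of all genes were, and the median was −0.04. Other markers moved with HS_Chol: 9 fat cell markers summed to 15.6 to 123 CPM in HS_Chol, 5.03 to 17.9 in HS and 5.45 to 14.8 in NC. Most of this was Cfd, with 62.0 ± 54.5 CPM (SD, n = 3) in HS_Chol and 0.0557 ± 0.0763 CPM (n = 5) in HS, while Ucp1 and Dio2 had no read in HS_Chol. The Kupffer cell sums were 280.3 to 709 CPM in HS_Chol and 146 to 387 in HS, and the part of these cells in the result was not tested. Mitochondrial tRNA genes of the light strand had 673 to 900 reads for every 1000000 on heavy-strand mRNAs in the 3 HS_Chol libraries, against at most 83.4 in the other libraries. Of the members 27 overlap a gene on the other strand, Sdhd and Cox7b not among them, and the part of strand assignment in these results was not tested.

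The difference between the 2 effects of cholesterol, with sucrose against with cholic acid, passed for 0 members in the first fit (unadjusted p under 0.05 in 6, and 1 higher member by DESeq2), where 6.00% of all genes passed in either direction. The smallest adjusted p were those of Ndufa10, an accessory subunit of complex I (0.51 ± 0.17, adjusted p = 0.082; chromosome 1, 92439010 to 92473860), and Uqcrc1 (0.48 ± 0.19, adjusted p = 0.148). With the slope Ndufa10 (0.60), Uqcrc1 (0.58) and Atp5d, the delta subunit of the ATP synthase (0.46), passed as higher, where 6.36% of all genes did. Ndufa10 had 170.8, 182.1, 181, 147.4 and 144.1 CPM in HS and 154.8, 158.5 and 163.6 in HS_Chol, which lay within the range of HS. In CA it had 160.6, 154.6, 164.2 and 187.1 CPM and in Chol_CA 121.2, 114, 102.1 and 112.6, with no overlap. By these 2 fits over all libraries, the cholesterol effect differed between the 2 backgrounds in 3 members with the slope and in none without it. The share with the slope was not above that of all genes. Among libraries of positive slope alone more members passed as higher, as given with the processing settings below.

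The mRNAs of mitochondrial DNA for the same chain were compared next. Of the 13, reads were found in number for mt-Nd1, mt-Nd2, mt-Nd4, mt-Nd5, mt-Nd6, mt-Co1 and mt-Cytb. The rows of mt-Nd3, mt-Nd4l and mt-Atp8 had no read in any library, and mt-Co2, mt-Co3 and mt-Atp6 reached at most 0.164 CPM, so complex IV was seen through mt-Co1 alone and complex V not at all. Summed, the mitochondrial mRNAs gave 95357, 93114, 89209 and 150640 CPM in NC libraries 0 to 3, that of library 3 again the highest. In Chol_CA they gave 70015, 31617, 72847 and 84233 CPM, all below NC. In plain shares of all reads the 2 diets overlapped. All mitochondrial genes took 8.98%, 9.03%, 8.65% and 13.7% in NC and 7.99%, 4.04%, 8.57% and 9.49% in Chol_CA. Per CPM of the nuclear members the mitochondrial mRNAs gave 10.96, 10.35, 9.92 and 11.7 in NC and 9.36, 3.65, 11.2 and 12.6 in Chol_CA. Apart from Chol_CA library 1 the ratio lay between 9.26 and 12.6 in the other 19 libraries. In scaled CPM both sums were below those of all NC libraries in every Chol_CA library.

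In Chol_CA against NC, 4 of the 7 tested mitochondrial mRNAs were lower and 0 higher, with a median of −0.68. The same comparison had 9.35% of all genes lower and 15.0% higher. Mt-Nd1, a core subunit of complex I, had 15360, 15110, 14420 and 23950 CPM in NC and 11000, 6475, 10320 and 11860 in Chol_CA. The groups did not overlap (−0.80 ± 0.19, adjusted p = 0.00315). Both ribosomal RNAs, mt-Rnr1 and mt-Rnr2, were lower too (−1.07 ± 0.22 and −1.12 ± 0.22, adjusted p = 0.00116 and 0.000849). Without Chol_CA library 1, 3 of 7 mRNAs and 2 of 2 ribosomal RNAs were lower, with mt-Nd1 at −0.63 ± 0.17 (adjusted p = 0.0107), and without NC library 3 the counts were 2 of 7 and 2 of 2. Against CA, 2 of 7 were lower (mt-Nd1 and mt-Nd6), where 7.80% of all genes were. In HS_Chol against NC only mt-Nd6, the 1 mRNA read from the light strand, passed, and it was higher (1.34 ± 0.27, adjusted p = 0.00721), beside the strand values given above. In HS and in CA against NC 0 of 7 passed by edgeR's quasi-likelihood test (0 and 1 with an unadjusted p under 0.05).

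Other genes of mitochondrial energy metabolism were taken from lists by role. In Chol_CA against NC by the first fit, 13 of 16 genes of the citric acid cycle and pyruvate dehydrogenase were lower and 0 higher (median −0.54). The same comparison had 9.35% of all genes lower and 15.0% higher. The pyruvate dehydrogenase subunit Dlat had the smallest adjusted p (−1.22 ± 0.21, adjusted p = 0.00018), and the 2-oxoglutarate dehydrogenase subunit Dlst fell by 0.62 (adjusted p = 0.000198). Of 12 genes for electron carriers and ubiquinone synthesis 4 were lower, among them Etfdh, which feeds electrons from fatty acid oxidation to ubiquinone (−1.10 ± 0.19, adjusted p = 0.000201), and Etfa. Of 11 carriers of the inner membrane 5 were lower and 2 higher. Without Chol_CA library 1, 3 of the carriers were lower. Slc25a20, the acylcarnitine carrier, fell by 1.11 on the log2 scale (adjusted p = 1.69e-06).

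Among factors that assemble the complexes, lower were 4 of 15 for complex I, 0 of 4 for II, 1 of 6 for III, 1 of 20 for IV and 1 of 3 for V, and 0 were higher. With all libraries 9.35% of all genes were lower and 15.0% higher in this comparison. The lower factors were Ndufaf1, Ecsit and 2 others for complex I, Uqcc for III, Lrpprc for IV and Tmem70 for V. Without NC library 3 these counts were 1 of 15, 0 of 4, 1 of 6, 1 of 20 and 0 of 3, and 2 factors of complex IV were higher. Without Chol_CA library 1 they were 3, 0, 1, 0 and 0. Of 17 regulators of mitochondrial biogenesis 4 were lower, 6 without NC library 3 and 2 without Chol_CA library 1. Esrrg fell by 2.58 (adjusted p = 0.000215) and Tfam, which packages and transcribes mitochondrial DNA, by 0.47 (adjusted p = 0.0126). Ppargc1a (−0.41 ± 0.31), Nrf1 (−0.11 ± 0.17), Gabpa (−0.42 ± 0.29), Esrra (0.20 ± 0.16) and Ppara (−1.14 ± 0.58) did not pass (adjusted p between 0.172 and 0.695). The difference between these shares and that of the members or of all genes was not tested.

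Markers of liver cell types differed between the diets. By the first fit 9.35% of all genes were lower and 15.0% higher in Chol_CA against NC. Summed CPM of 14 hepatocyte markers ran from 141250 to 157250 in NC and from 76980 to 91283 in Chol_CA, and 5 of 14 were lower by the first fit (2 without NC library 3). They ran from 114290 to 135270 in HS, 100930 to 110950 in HS_Chol and 106930 to 133650 in CA, below NC in each of these diets. Alb led these sums, with means of 90972 CPM in NC, 70074 in HS, 60165 in HS_Chol, 73013 in CA and 40655 in Chol_CA. Without NC library 3, 0 of 14 were called in HS against NC (median log2 fold change 0.08) and 0 in HS_Chol against NC (−0.22). Without Chol_CA library 1 these counts were 0 and 2 lower. Of 12 Kupffer cell markers 11 were higher in Chol_CA, with sums of 116 to 192 CPM in NC and 1051 to 2980 CPM in Chol_CA. The Kupffer sums were 146 to 387 CPM in HS, 280.3 to 709 in HS_Chol and 284 to 884 in CA, so that HS_Chol and CA also lay above NC. Of 12 markers of lipid-associated and monocyte-derived macrophages 12 were higher, with sums of 81.8 to 172 and 493 to 1860 CPM. Of 10 stellate cell and fibroblast markers 6 were higher, with 197 to 444 and 461 to 855 CPM. No gene of these 4 lists was at 0 in either diet. Of 8 tested T and B cell markers 7 were higher, of 10 endothelial markers 4 and of 5 tested cholangiocyte markers 2. Without NC library 3 the endothelial count was 6, and without Chol_CA library 1 it was 1. The cholangiocyte counts in these 2 fits were 0 and 1 of 4. Spp1 was left out of that list there, so they cannot be set against the 2 of 5. In a bulk sample fewer cells of a type and less RNA per cell cannot be told apart, and the part of the cell makeup in the members' fall was not tested.

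A library held between 6110484 and 10244277 reads, and the HS_Chol libraries held at most 6709497. The members took 0.738% to 1.14% of the reads of a library. Without scaling they took 0.800%, 0.846%, 0.844% and 1.14% in NC and 0.837%, 1.07%, 0.750% and 0.738% in Chol_CA, which overlap. The least read members, Ndufa4l2 and Cox7c, had 303 reads each over all libraries, and their values are the least precise of the set. The share of mitochondrial genes in all reads was 4.04% in Chol_CA library 1 and 7.99% to 13.7% in the other 19.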

How the data were processed

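Liver RNA was measured as read counts per gene in 20 libraries of 5 diets, and 24 samples are labelled. Per the labels' protocols, total RNA went into stranded libraries read as 50-base single ends. The deposited values are raw counts that the authors made per gene, and the submitters' processing notes name STAR 2.6.1c and mm10. The counter, the strand counted and the handling of reads with several matches are not given in the sources used here. Of the columns, 3 matched no labelled sample and were not used.

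Counts were scaled by edgeR's trimmed mean of M values and filtered (filterByExpr), leaving 12595 genes. edgeR 4.0.16 (R 4.3.3, limma 3.58.1) fitted 1 mean per diet by the quasi-likelihood method, with Benjamini-Hochberg adjustment over all genes tested and calls at an adjusted p under 0.05. A second fit added the library length slope. All adjusted p in the text come from these fits unless DESeq2 (1.42.0) is named. The fits were also run on simulated data with length slopes set without regard to diet, and the outcome is not given here. The common biological coefficient of variation was 0.235.

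Named genes were, per comparison, the 3 largest rises and falls among the called members (the 2 smallest adjusted p where fewer were called), the top member per length of each complex, isoform pairs, core subunits, and up to 2 genes of each other list. Some members beyond that rule (Atp5d and Atp5e among them), the Chol_CA values of Cox7b and the printed promoters were chosen after their values were seen. The members and lists were chosen with earlier results of these data known. Alternatives were another scaling, other filters, DESeq2, a length and GC offset, subsets of libraries or genes, a replicate block and leaving out each library.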

Additional observations from a re-analysis of the deposited data

Results flagged for a closer look

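NC library 3 stood apart from the other 3 chow libraries, by a gap to its nearest neighbour that was large against the range of the group (Dixon's criterion at 95%). Its members summed to 12865 CPM and its mitochondrial mRNAs to 150640 CPM, with a length slope of −0.161. It was also the high library for complex I (3942.2 CPM), complex III (1642.4), complex IV (2029) and complex V (4159.4). It was highest for complex II too, without meeting the criterion. Among single members it stood apart for Cox6b1 (303.9 CPM), Cox7b (193.2), Ndufa10 (203.4), Ndufa6 (282.6), Sdhc (201.1), Sdhd (194.1) and Uqcrq (474.7). In Chol_CA, library 1 stood apart for Uqcrc2 (127.1 CPM). Of 100 groups examined 15 met this criterion, 14 of them through NC library 3, where chance gives about 1 in 20 for independent groups. These groups were not independent, since they share libraries and the sums hold the single members. The 14 therefore count the departure of 1 library many times.

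The effect of cholesterol differed between the sucrose and the cholic acid background, in the fit with the length slope, for Ndufa10 (0.601), Atp5d (0.46) and Uqcrc1 (0.58) on the log2 scale, by edgeR's quasi-likelihood interaction test (adjusted p = 0.00478, 0.0286 and 0.0156). A positive value means a smaller fall, or a rise, with sucrose relative to cholic acid. Of all genes 6.36% were higher in this test, so the share of members was not above that of all genes.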

How the results depend on the processing

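Counts of called members are given in this section without the share of all genes called in the same setting, which also moved. In Chol_CA against NC 9.35% of all genes were lower in all libraries and 12.0% in positive-slope libraries. Against CA these shares were 7.80% and 13.8%. The counts alone therefore do not tell a change of the members from a change of all genes. The cause of each change was not tested. With DESeq2 size factors in edgeR, CA against NC with the slope gave 10 lower members and the length trend 1 higher. Without the filter, Chol_CA against NC gave 0 higher, CA with the slope 3 lower and the trend 1 higher. At a mean of 5 CPM or more, HS_Chol against NC with the slope gave 3 lower and the trend 1 higher. Without mitochondrial rows, the fit with the slope gave 14 lower in HS_Chol and 10 in CA against NC, and 5 higher in the interaction. Without genes that overlap on the other strand, Chol_CA against CA gave 7 lower and the interaction 1 higher, and with the slope HS_Chol against HS gave 8 lower, the interaction 5 higher and the trend 0 higher. With a length and GC offset, 8, 2 and 59 members were lower in HS_Chol, CA and Chol_CA against NC, 16 in HS_Chol against HS and 47 in Chol_CA against CA, and 3 were higher in the interaction; with the slope as a covariate these were 9, 5, 63, 13, 51 and 3. In positive-slope libraries only, CA gave 6 higher and 2 lower, Chol_CA 0 higher and 46 lower, HS_Chol against HS 0 lower, Chol_CA against CA 58 lower and the interaction 19 higher. With the compared groups alone, Chol_CA against NC gave 0 higher and Chol_CA against CA 6 lower. DESeq2 gave 1 lower in HS_Chol against NC and 1 higher in the interaction. The length trend under the length and GC offset was not run.

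With the column number as a replicate block, HS_Chol against HS gave 0 lower members (7 with the slope), HS_Chol against NC with the slope 4 lower and the trend 1 higher. The numbers do not pair the samples: same-numbered libraries had correlations of −0.45 to 0.373 (median 0.0644) over 36 pairs, and 3 of 20 libraries correlated best with their own number.

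Leaving out 1 library of the compared groups at a time (any of the 20 for the trend), Chol_CA against NC gave 12 to 19 lower members and 0 to 1 higher (with the slope 52 to 67 and 0 to 1), Chol_CA against CA 9 to 12 lower (36 to 57), HS_Chol against HS 0 to 1 (1 to 12), HS_Chol against NC 0 (0 to 9), CA against NC 0 to 1 (3 to 10), the interaction 0 to 1 higher (2 to 8), and the trend 58 to 63 lower and 1 to 2 higher. HS against NC gave 0 throughout.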
